A study of Mus musculus with 3 samples.

Results

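The sterol and fatty acid synthesis genes described here are 43 genes chosen by name from the SREBP and LXR pathways, of 21887 protein-coding mouse genes. All 43 were found in the gene table. They comprise 5 SREBP regulators, 6 mevalonate genes, 9 later sterol genes, 1 sterol transfer gene, 5 fatty acid synthesis genes, 5 desaturases, 5 elongases, 2 lipins and 5 LXR and cholesterol export genes. Open chromatin was mapped by ATAC-seq, which uses a transposase to tag DNA that is not tightly packed, in hematopoietic stem cells (HSCs) from adult Mx1-Cre-/-;mTORflox/flox mice. Every group therefore carried floxed mTOR alleles without the Cre transgene and came from animals injected with poly(I:C), an inducer of interferon. Sorted cells were grown in StemSpan SFEM medium and received DMSO (the solvent), 200 nM AZD2014, which blocks the mTOR kinase site, or 1 µM rapamycin, which inhibits mTOR allosterically with FKBP proteins. The sources used here state neither the number of animals nor the length of exposure. Each condition had 1 library, so there is no replicate error, no p-value is given, and each difference below describes these libraries only.

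Sterol and fatty acid synthesis are controlled by SREBP transcription factors, which are held in the endoplasmic reticulum by the SCAP and INSIG proteins while sterols are plentiful and move to the Golgi for cleavage when sterols are scarce. The mature factors bind sterol regulatory elements near the start of their target genes, often beside the factors NF-Y, which binds CCAAT, and SP1, which binds GC boxes. LXR receptors, activated by oxysterols, turn on cholesterol export and the Srebf1 gene. mTOR complex 1 is known to promote SREBP activity, in part by keeping lipin 1 out of the nucleus.

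A gene-end peak overlapped the stretch within 1 kb of the first or last base of the gene, and a window peak overlapped the gene or its 20 kb flanks. Peaks numbered 17189 for DMSO, 21321 under AZD2014 and 18233 under rapamycin. Each list started at a score (the authors' own value per peak) of 50. Read depth is unknown, and a peak missing from a list only failed the authors' threshold there. Scores were compared within a list as percentiles, the share of that list's peaks with a lower score. At equal length means with each list shortened to its 17189 highest scores, which removed AZD2014 peaks below 67.1 and rapamycin peaks below 53.7. Of 12 HSC marker genes, such as Kit, Meis1 and Mecom, 6 (DMSO), 7 (AZD2014) and 6 (rapamycin) had a gene-end peak, and all 12 had a window peak in every list. Of 22 markers of other cell types, 5, 7 and 7 had one, with Klf1, Epor, Pf4, Cd3d and Col1a1 in every list, Cd79a under both drugs, Epcam under AZD2014 and Mpo under rapamycin. Cd8a, Ly6g, Alb and Pdgfra had no window peak in any list, and the part of other cells in the results below was not tested.

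Promoter sequences from RefSeq (GRCm38.p6, the assembly named mm10), running from 250 bases before to 50 after a transcription start, were given for 35 of the 43 genes as 48 segments. They are shown for the gene whose promoter held a sterol regulatory element core, for the 3 genes whose promoter had a peak in some lists and not others, and, chosen after the values were seen, for 2 start sites of Srebf1 and for Insig1. Each is printed 5′ to 3′ on the strand of the gene, with capitals for TCACNCCAC (the sterol regulatory element core), CACGTG (the E-box, which SREBP-1 can also bind) and CCAAT, on either strand. The segment of Hmgcs1 lies at chr13:119690101-119690400 on the plus strand, that of Insig1 at chr5:28071162-28071461 on the plus strand and that of Elovl6 at chr3:129532136-129532435 on the plus strand. The segment of Elovl2 lies at chr13:41220354-41220653 and that of Abca1 at chr4:53159846-53160145, both on the minus strand. Those of Srebf1 lie at chr11:60222532-60222831 for the outer and chr11:60210422-60210721 for the inner start, on the minus strand.
Hmgcs1: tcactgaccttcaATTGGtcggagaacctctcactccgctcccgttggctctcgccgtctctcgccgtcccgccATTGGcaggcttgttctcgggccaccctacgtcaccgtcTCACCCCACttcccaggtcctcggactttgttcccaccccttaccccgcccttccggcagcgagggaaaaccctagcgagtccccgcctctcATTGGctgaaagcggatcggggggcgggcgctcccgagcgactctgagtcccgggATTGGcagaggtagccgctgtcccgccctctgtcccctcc
Insig1: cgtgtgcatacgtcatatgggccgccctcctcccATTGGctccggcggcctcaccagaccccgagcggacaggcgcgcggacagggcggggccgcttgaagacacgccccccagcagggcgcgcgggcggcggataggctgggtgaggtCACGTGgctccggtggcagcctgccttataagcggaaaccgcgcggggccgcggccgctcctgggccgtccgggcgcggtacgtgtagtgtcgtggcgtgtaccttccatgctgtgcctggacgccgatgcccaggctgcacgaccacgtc
Elovl2: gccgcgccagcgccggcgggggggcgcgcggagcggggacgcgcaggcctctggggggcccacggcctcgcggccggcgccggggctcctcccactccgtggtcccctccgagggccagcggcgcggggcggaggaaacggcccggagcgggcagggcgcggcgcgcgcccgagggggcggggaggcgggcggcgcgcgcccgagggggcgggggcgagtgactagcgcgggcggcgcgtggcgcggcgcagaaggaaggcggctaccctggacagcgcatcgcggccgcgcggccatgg
Elovl6: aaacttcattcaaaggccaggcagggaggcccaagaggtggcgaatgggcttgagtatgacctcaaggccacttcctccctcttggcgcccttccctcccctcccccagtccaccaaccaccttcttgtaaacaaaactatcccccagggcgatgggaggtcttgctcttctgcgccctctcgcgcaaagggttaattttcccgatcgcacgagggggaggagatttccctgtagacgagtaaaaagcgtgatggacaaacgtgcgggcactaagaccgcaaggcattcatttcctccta
Abca1: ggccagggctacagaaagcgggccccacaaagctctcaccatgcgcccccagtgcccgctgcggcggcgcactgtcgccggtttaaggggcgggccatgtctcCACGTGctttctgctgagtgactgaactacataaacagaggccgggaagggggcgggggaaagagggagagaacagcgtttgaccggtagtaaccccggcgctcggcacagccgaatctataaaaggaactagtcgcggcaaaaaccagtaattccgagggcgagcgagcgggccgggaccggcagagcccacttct
Srebf1 outer start: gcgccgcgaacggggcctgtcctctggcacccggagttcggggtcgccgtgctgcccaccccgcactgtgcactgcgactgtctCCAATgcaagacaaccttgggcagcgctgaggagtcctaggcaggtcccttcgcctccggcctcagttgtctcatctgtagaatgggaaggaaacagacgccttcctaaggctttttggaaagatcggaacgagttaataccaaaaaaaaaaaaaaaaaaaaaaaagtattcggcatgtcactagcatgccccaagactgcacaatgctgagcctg
Srebf1 inner start: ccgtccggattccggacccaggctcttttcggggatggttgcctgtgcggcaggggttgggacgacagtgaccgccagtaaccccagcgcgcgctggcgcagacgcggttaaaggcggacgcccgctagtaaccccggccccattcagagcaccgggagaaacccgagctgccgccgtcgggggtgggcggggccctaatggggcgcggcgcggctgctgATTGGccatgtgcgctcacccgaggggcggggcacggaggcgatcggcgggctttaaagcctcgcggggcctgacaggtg

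Hmgcs1 was the only one of the 35 genes with TCACNCCAC in a segment. The match, TCACCCCAC, began 137 bases before the start and lay inside the peak of each list, beside 4 CCAAT matches, which read ATTGG here because they are on the other strand. Over all genes with a segment, 1.41% held this motif. CCAAT stood in a segment of 25 of the 35 genes (71.4%), against 42.3% of all 17492 genes, and GGGCGG in 26 (74.3%, against 49.2%). The E-box was found at 8 genes (22.9%, against 8.91%), namely Abca1, Dhcr7, Elovl5, Hsd17b7, Insig1, Lpin2, Sc5d and Scap. A gene with more segments has more chances of a match, and the members had more segments per gene than all genes. Counted per segment, the shares were 54.2% against 38.2% for CCAAT, 66.7% against 46.2% for GGGCGG and 18.8% against 7.84% for the E-box. Among genes with a DMSO peak on a segment, CCAAT stood at 24 of 29 members (82.8%) and 45.2% of all such genes. For GGGCGG the shares in this set were 82.8% and 74.4%, and for the E-box 24.1% and 12.6%. Within the member segments, 39 of 53 CCAAT matches (73.6%) began in the 150 bases before the start, against 63.5% of matches over all segments. Matches are letters only, and binding was not measured. Only 1 overlap between different motifs occurred in the member segments.

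Most of the pathway was open at its gene ends in all 3 lists. Gene-end peaks were present at 34 of the 43 genes under DMSO (79.1%), where 46.0% of all protein-coding genes had one. AZD2014 had them at 37 (86.0%, against 49.5% of all genes) and rapamycin at 36 (83.7%, against 46.9%). In every list 33 genes had such a peak, 5 had none in any list and 5 differed between lists. On the promoter segments themselves, 29 of 35 genes had a peak under DMSO (82.9%, against 46.5% of all genes with a segment), 31 under AZD2014 (88.6%, against 49.8%) and 30 under rapamycin (85.7%, against 47.7%). The highest-scoring gene-end peak of the members had a median width of 840 bp under DMSO, 1037 bp under AZD2014 and 909 bp under rapamycin, where all genes gave 783, 942 and 906 bp. The median percentile of these peaks was 88.1 under DMSO, 84.9 under AZD2014 and 85.8 under rapamycin, against 71.0, 75.1 and 72.6 for all genes with a gene-end peak. At equal length the medians were 88.1, 81.7 and 86.1, against 71.0, 70.9 and 71.3. The members with a peak differed between lists, so the medians do not compare the same genes.

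**Figure D1:**
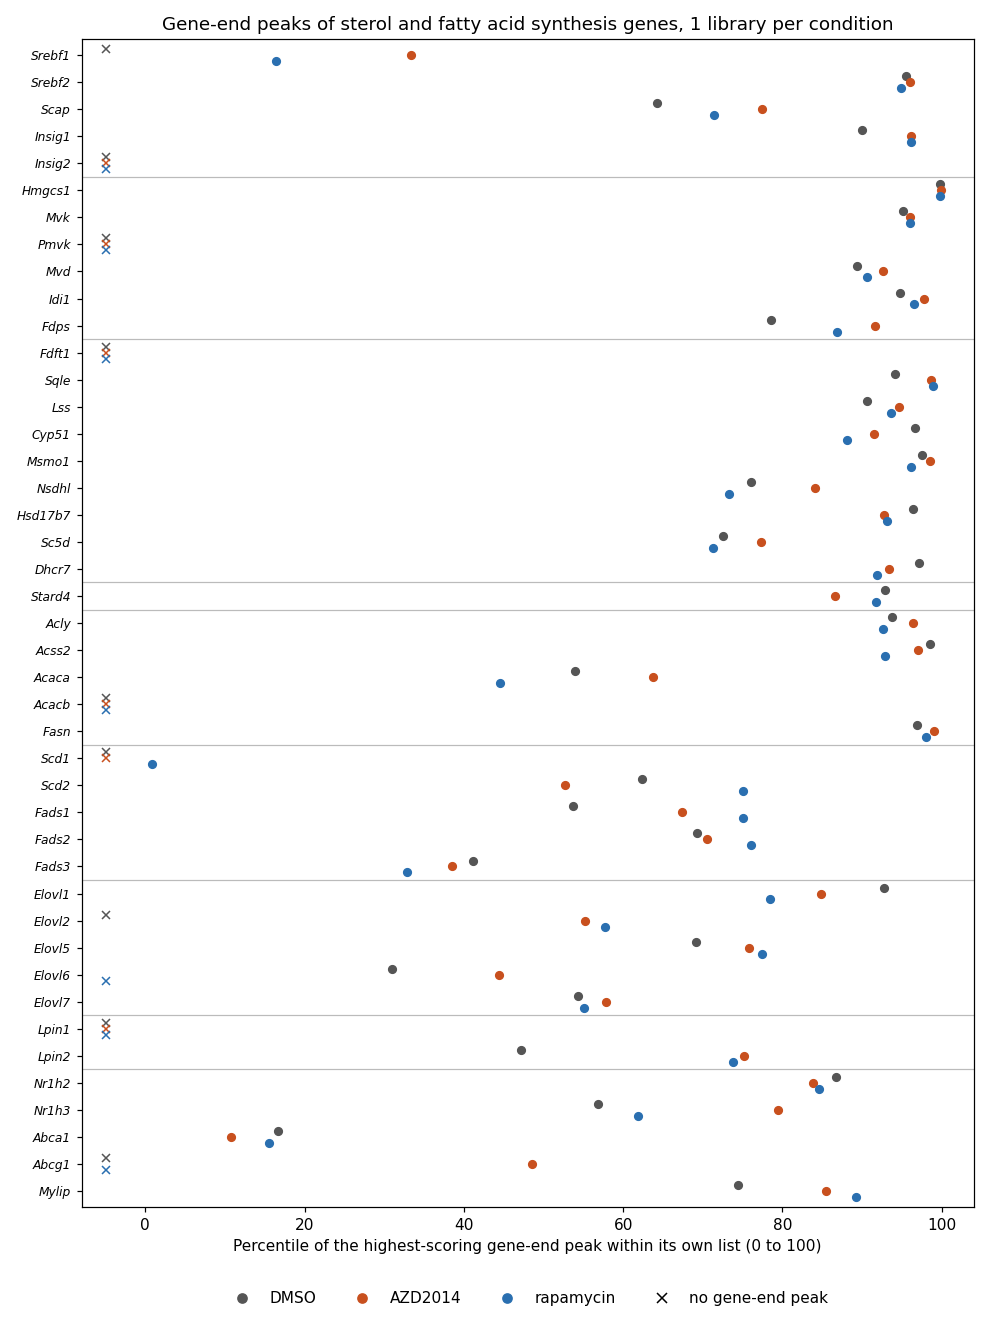
Percentile of the highest-scoring gene-end peak of each of the 43 genes within its own list, 1 point per library, grouped by role with grey lines, and a cross where a list had no gene-end peak. The mevalonate and sterol genes that had a peak sit at 71.3 or higher in every list, while desaturases and elongases spread from 0.828 to 92.8.

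The regulators split into strongly and weakly marked genes. Srebf2, the factor directed mainly at sterol genes, had its start peak at percentile 95.5 under DMSO, 96.0 under AZD2014 and 94.9 under rapamycin (scores 448, 614 and 504), so its place was nearly the same in each list. Insig1, which retains SCAP and is itself an SREBP target, stood at 90.0 under DMSO, 96.1 under AZD2014 and 96.2 under rapamycin (scores 358, 618 and 542). A smaller peak upstream of Insig1 (chromosome 5, 28063734 to 28064493) stood at 11.8, 55.0 and 48.3 in that order, low under DMSO and midway under the drugs. Scap, the escort protein gene, stood at 64.2, 77.5 and 71.4. At equal length the Scap values were 64.2, 72.0 and 69.6, and those of Insig1 90.0, 95.2 and 95.9, so DMSO was the lowest list for both genes. Insig2 had no gene-end peak in any list, and the segment of its outermost start held none. A peak lay on its inner start sites (chromosome 1, 121327180 to 121328633 over the lists), at percentiles of 84.6, 96.0 and 95.8, again with DMSO lowest.

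Srebf1, which gives rise to SREBP-1a and SREBP-1c from separate starts, was marked at 3 start sites in every list. In the full lists the percentile at the outer start was 19.9 under DMSO, 33.4 under AZD2014 and 16.4 under rapamycin. It was 54.0, 67.4 and 59.5 at the middle start and 55.1, 65.3 and 79.8 at the inner start. At equal length the outer start stood at 19.9, 17.4 and 11.3, so the higher AZD2014 value was not kept and DMSO was highest. The outer site was thus the weakest in every list, and in the full lists the inner site was higher under both drugs than under DMSO. Its AZD2014 score was 217. At equal length, AZD2014 peaks of scores 206 and 231 at Acaca and Fads1 stood at 55.0 and 59.6. The inner site therefore fell between these values under AZD2014, close to the 55.1 of DMSO. By the gene-end rule Srebf1 counts as marked under both drugs and not under DMSO. At the outer start, the DMSO peak (60222559 to 60223157) ended 29 bp short of the gene-end zone. The difference at that start is therefore at the window edge and not a missing peak. Rapamycin alone had a further gene-end peak at the opposite end, near the end of the neighbour Rai1 (60199682 to 60200126, score 60.5). It was kept at equal length, and by it Srebf1 counts as gained under rapamycin apart from the window edge. AZD2014 alone had a peak outside the gene (score 64.5).

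Of the 6 mevalonate genes, 5 had a gene-end peak in every list, with median percentiles of 94.8, 96.0 and 96.0. Hmgcs1, which encodes the cytosolic HMG-CoA synthase, had rank 35 of 17189 under DMSO, 31 of 21321 under AZD2014 and 40 of 18233 under rapamycin (scores 840, 1082 and 917). Its peak spanned chromosome 13, 119689836 to 119690992 under DMSO, and it had the highest percentile of the members in each list. Idi1, the isopentenyl diphosphate isomerase gene, stood at 94.8, 97.8 and 96.5. Mvk, the mevalonate kinase gene, stood at 95.2, 96.0 and 96.0, with a peak that also reached the end of the neighbour Mmab, a gene of vitamin B12 use. Mvd, which decarboxylates mevalonate diphosphate, stood at 89.4, 92.6 and 90.6. Fdps, the farnesyl diphosphate synthase gene, was lower under DMSO, at 78.6, than under AZD2014 (91.6) and rapamycin (86.9), and the order was kept at equal length, with 78.6, 89.6 and 86.1. Pmvk, the phosphomevalonate kinase gene, had no gene-end peak, but a peak reached the segment of its inner start in every list, at 56.0, 58.3 and 66.6.

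Genes from squalene to cholesterol were likewise marked in all 3 lists. Sqle, which encodes the rate-limiting squalene epoxidase, stood at 94.1 under DMSO, 98.7 under AZD2014 and 98.9 under rapamycin (scores 419, 768 and 694), lowest under DMSO. Lss, the lanosterol synthase gene, was also lowest under DMSO, at 90.6, 94.7 and 93.6. Cyp51, the lanosterol demethylase gene, had the reverse order, with 96.7, 91.5 and 88.1, or 96.7, 89.4 and 87.4 at equal length. Dhcr7, which encodes the reductase of the last step, and Hsd17b7, a sterol ketoreductase gene, were also highest under DMSO, at 97.1, 93.4 and 91.9 and at 96.4, 92.8 and 93.2. The Dhcr7 peak reached the end of the neighbour Nadsyn1, and a second Dhcr7 start inside the gene carried a peak at 94.2, 95.1 and 93.7. Msmo1, a sterol methyl oxidase gene, stood at 97.5, 98.6 and 96.1, and a peak in its body at 43.4, 67.7 and 45.8. Nsdhl, on the X chromosome and sharing its peak with Cetn2, stood at 76.1, 84.1 and 73.3, and Sc5d, the sterol desaturase gene, at 72.6, 77.3 and 71.3. Fdft1, the squalene synthase gene, had no gene-end peak but a peak inside the gene (chromosome 14, 63177468 to 63178502) at 93.2, 93.6 and 97.0. Stard4, which encodes a sterol transfer protein, stood at 92.9, 86.6 and 91.8. Within this group neither order was general: at equal length Sqle and Lss were lowest, and Cyp51, Dhcr7, Hsd17b7, Sc5d and Stard4 highest, under DMSO.

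Fatty acid synthesis genes were marked about as strongly as the sterol genes. Fasn, the fatty acid synthase gene, stood at 96.9 under DMSO, 99.0 under AZD2014 and 98.0 under rapamycin (scores 489, 793 and 630). Acly, which makes cytosolic acetyl-CoA from citrate, stood at 93.8, 96.4 and 92.6, and Acss2, which makes it from acetate, at 98.5, 97.0 and 92.9. Acaca, the gene of the cytosolic acetyl-CoA carboxylase, had a modest gene-end peak at 54.0, 63.7 and 44.5 that also lay at the end of the neighbour Tada2a. A far stronger Acaca peak stood inside the gene (chromosome 11, 84179075 to 84180601) at 95.8, 97.6 and 95.8, while its given promoter segment held no peak in any list. Acacb, the gene of the mitochondrial carboxylase, had no gene-end or promoter peak, and its strongest body peak stood at 77.5, 76.0 and 83.4.

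Desaturase and elongase genes had lower percentiles, with medians of 58.1, 60.1 and 75.0 for the desaturases and 61.7, 57.8 and 67.6 for the elongases under DMSO, AZD2014 and rapamycin, against 95.4, 96.7 and 92.7 for fatty acid synthesis. In these full lists 4, 4 and 5 desaturases and 4, 5 and 4 elongases had a gene-end peak, so the medians do not compare the same genes. At equal length the medians were 58.1, 50.5 and 73.5 for the desaturases and 61.7, 47.7 and 65.6 for the elongases, both lowest under AZD2014. The elongases with a peak differed between lists there too. Scd1, the stearoyl-CoA desaturase gene best known in liver and fat, had no gene-end peak under DMSO or AZD2014. Rapamycin had one at 50.5 (percentile 0.828), which was lost at equal length. Scd2, its relative, stood at 62.4 under DMSO, 52.7 under AZD2014 and 75.0 under rapamycin, or 62.4, 41.3 and 73.5 at equal length. AZD2014 had 2 gene-end peaks there, the second at score 54.9, where the other lists had 1. Fads1, which encodes the delta-5 desaturase, stood at 53.7, 67.4 and 75.0 and was highest under rapamycin. Fads2, the delta-6 desaturase gene, stood at 69.3, 70.5 and 76.1, and Fads3 at 41.2, 38.5 and 32.9. The windows of Fads2 and Fads3 share peaks, so these 2 genes are not separate observations there.

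Elovl2, an elongase of polyunsaturated fatty acids, had no window peak under DMSO, where the nearest peak lay 28032 bp beyond the gene-end zone. Under AZD2014 a peak covered its start (41220151 to 41220882, score 156, percentile 55.2), and under rapamycin another did (41220069 to 41220735, score 159, percentile 57.7). Lack of a DMSO partner was uncommon at such ranks, applying to 183 of 2133 AZD2014 peaks between percentiles 50 and 60 (8.58%) and to 66 of 1823 rapamycin peaks (3.62%). Elovl2 was singled out among the members for this lack, and both shares use the same DMSO library. The shares therefore describe the lists and are no test of Elovl2. The segment printed above lacks the E-box and CCAAT and held 5 matches of GGGCGG. Elovl6, which extends palmitate, had a peak on its start under DMSO (81.8, percentile 31.0) and AZD2014 (59.1, percentile 11.9) and none under rapamycin. The AZD2014 start peak was lost at equal length. A second region just inside the gene held a peak in every list, at scores of 96.5, 116 and 68.2, and only that of AZD2014 reached the gene-end zone, while that of rapamycin began 597 bp beyond it. A pair of peaks further inside Elovl6 was also present in every list, at percentiles of 53.5, 51.6 and 60.6 and of 56.4, 60.0 and 48.4. Elovl1, which makes very long saturated chains, stood at 92.8 under DMSO, 84.9 under AZD2014 and 78.4 under rapamycin, with DMSO highest also at equal length (92.8, 81.3 and 77.1). Elovl5 stood at 69.2, 75.8 and 77.5, and Elovl7 at 54.3, 57.8 and 55.1.

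**Figure D2:**
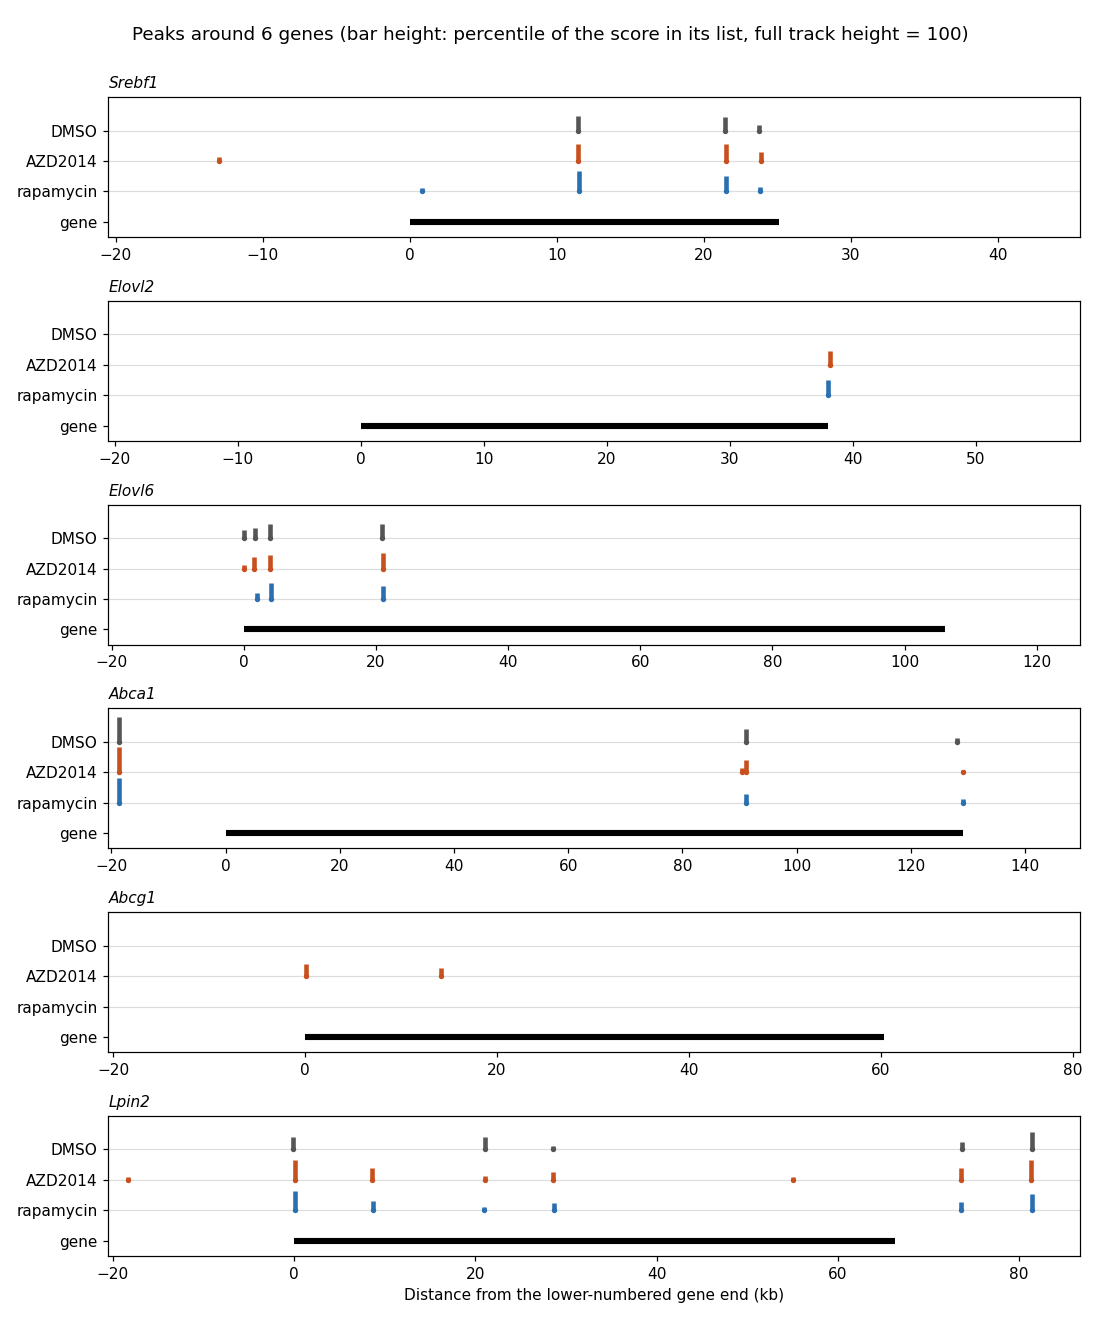
Peaks of each list in the windows of Srebf1, Elovl2, Elovl6, Abca1, Abcg1 and Lpin2, by distance in kb from the lower-numbered end of the gene (black bar), with bar height giving the percentile of the peak in its own list. Elovl2 has a peak in both drug lists and none under DMSO, and Abcg1 has 2 peaks under AZD2014 and none in the other lists.

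Lpin2 had the most window peaks of the 43 genes, with 5 under DMSO, 8 under AZD2014 and 6 under rapamycin. At equal length the Lpin2 numbers were 5, 5 and 6. Lipins are phosphatidate phosphatases on the way to triglycerides and phospholipids. The peak on the first Lpin2 starts stood at 47.2 under DMSO, 75.2 under AZD2014 and 73.8 under rapamycin (scores 116, 294 and 250), and at equal length the values were 47.2, 69.3 and 72.2. At an inner start of the same gene (chromosome 17, 71204343 to 71204785) DMSO was instead highest in the full lists, with 46.7, 13.6 and 13.3. The AZD2014 peak there (score 60.7) was lost at equal length. A body peak (71191802 to 71192509) was present under AZD2014 (114) and rapamycin (88.9) and not under DMSO. Lpin1, whose protein is an mTOR target, had no gene-end peak in any list. Its window contained 3, 5 and 4 peaks in the full lists and 3 in each list at equal length, with body peaks at 16583921 to 16584520 and 16591314 to 16591895 on chromosome 12 under both drugs and not DMSO. The scores of these were 76.2 and 72.0 under AZD2014 and 57.2 and 95.2 under rapamycin, and both were kept at equal length.

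Among LXR and cholesterol export genes, Abcg1, which exports cholesterol to HDL, had no window peak under DMSO or rapamycin. AZD2014 had a gene-end peak (chromosome 17, 31057487 to 31057996, score 129, percentile 48.5) and a body peak (31071634 to 31072032, score 82.6), and both were kept at equal length. Of AZD2014 peaks between percentiles 40 and 50, 555 of 2131 had no DMSO partner (26.0%), a share that describes the list and is no test of Abcg1. Abca1, which exports cholesterol to apolipoprotein A-I, had weak gene-end peaks at 63.5 under DMSO, 58.0 under AZD2014 and 61.6 under rapamycin, at different places. The DMSO peak (53158668 to 53159086) lay inside the gene, and the peaks under the drugs (53159763 to 53160249 and 53159737 to 53160288) lay on the start printed above, which had no DMSO peak. At equal length the AZD2014 peak was lost, so these positions rest on peaks close to the threshold of 50. Mylip, which encodes a ligase that degrades lipoprotein receptors, stood at 74.4 under DMSO, 85.5 under AZD2014 and 89.2 under rapamycin, lowest under DMSO.

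Both LXR genes shared peaks with neighbours. Nr1h2, the gene of LXR beta, had 2 gene-end peaks in every list, of which the higher, at 86.7, 83.9 and 84.6, also lay at the end of Pold1. The other, on its own start, stood at 73.2, 71.6 and 77.6. Nr1h3, the gene of LXR alpha, stood at 56.9 under DMSO, 79.5 under AZD2014 and 61.9 under rapamycin at an end that also belongs to Madd, while its given promoter segments held no peak in any list. The gene-end peak at its opposite end (chromosome 2, 91202449 to 91203119), also at the end of Acp2, scored 130 under DMSO and 164 under AZD2014 and was missing under rapamycin. The numbers of Nr1h3 window peaks were 3, 2 and 1, but the DMSO list had a pair of peaks at the Madd end where AZD2014 and rapamycin each had a single peak. In each list, 6 members had a highest gene-end peak that lay at the end of another protein-coding gene too (Mvk, Nsdhl, Dhcr7, Acaca, Nr1h2 and Nr1h3).

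Counted against DMSO, AZD2014 gained a gene-end peak at 3 members (6.98%, against 4.63% of all genes), Abcg1, Elovl2 and Srebf1, and lost one at 0 (against 1.09%). Rapamycin gained one at 3 (6.98%, against 3.05%), Elovl2, Scd1 and Srebf1, and lost one at 1, Elovl6 (2.33%, against 2.09%). At equal length AZD2014 gained 3 (against 3.03% of all genes) and lost 1, Abca1 (against 1.96%), and rapamycin gained 2 (against 2.66%) and lost 1 (against 2.34%). Srebf1 was an edge case at its outer start, though rapamycin also had a separate weak peak at its opposite end. With Srebf1 left out, each drug gained 2 members in the full lists, and Elovl2 was the member gained in both. Both comparisons use the same DMSO library, so the shared gain is no separate support. These counts are too small to be read as a difference from all genes.

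**Figure D3:**
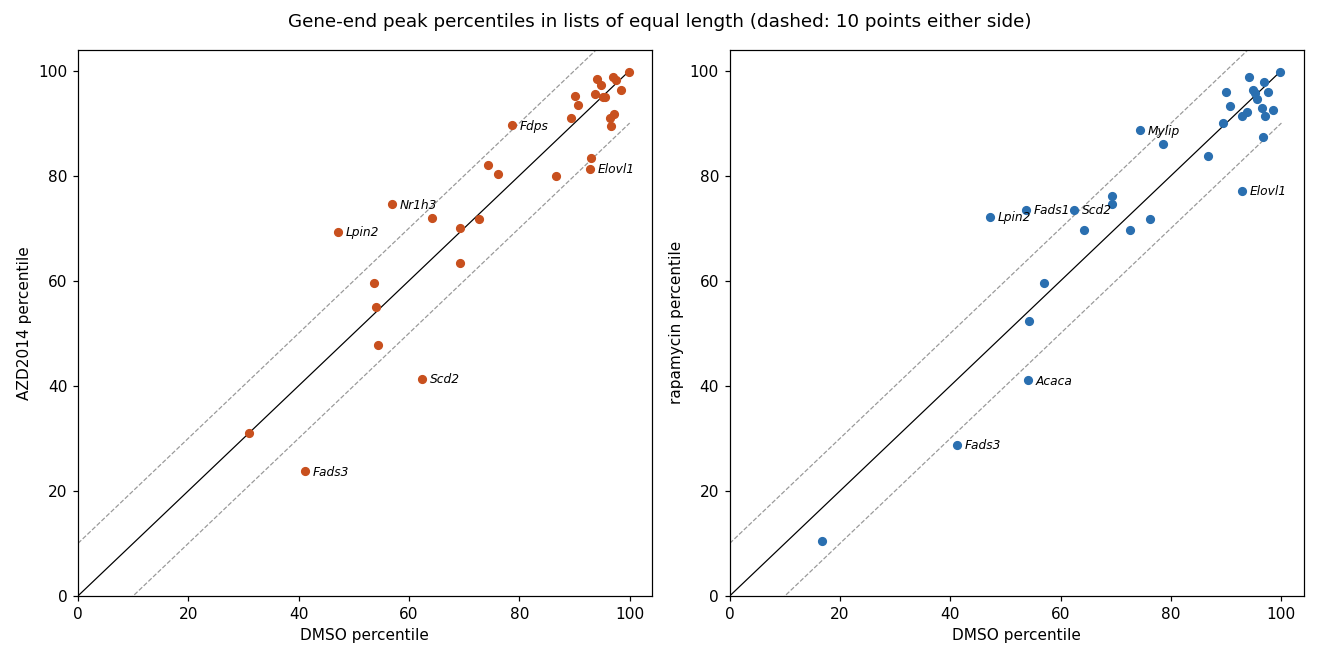
Percentile of the highest-scoring gene-end peak under each drug against DMSO in lists of equal length, for the 33 members with a peak in both lists of a pair, with members named where they lie 10 points or more off the diagonal. Lpin2 is above the band in both panels, and Elovl1 and Fads3 are below it in both.

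Rank differences of 10 percentile points or more, a limit chosen after the values were seen, were found at few members. At equal length, 33 members had a gene-end peak under both AZD2014 and DMSO. Of these, 3 (9.09%) stood at least 10 points higher under AZD2014, namely Fdps (11.0 points), Nr1h3 (17.8) and Lpin2 (22.1), where 15.8% of all genes did so. Another 3 stood at least 10 points lower, namely Elovl1 (-11.5), Fads3 (-17.6) and Scd2 (-21.1), against 12.4% of all genes. Under rapamycin, Scd2 (11.0), Mylip (14.1), Fads1 (19.8) and Lpin2 (25.0) stood higher, which is 12.1% of 33 members against 16.1% of all genes. Lower under rapamycin were Fads3 (-12.5), Acaca (-12.9) and Elovl1 (-15.7), against 13.6% of all genes. A rise of 10 points was not possible from a DMSO percentile of 90 or more, where 15 of the 33 members (45.5%) stood, against 18.9% of all genes in the AZD2014 comparison and 19.1% in the rapamycin one. Among the 18 members below that limit, a split added after the values were seen, 3 stood higher under AZD2014 (16.7%, against 19.4% of all such genes) and 4 under rapamycin (22.2%, against 19.9%), close to the background in both. Scd2 was lower than DMSO under AZD2014 and higher under rapamycin. The drugs were used at different doses, so they are set side by side and not compared.

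**Figure D4:**
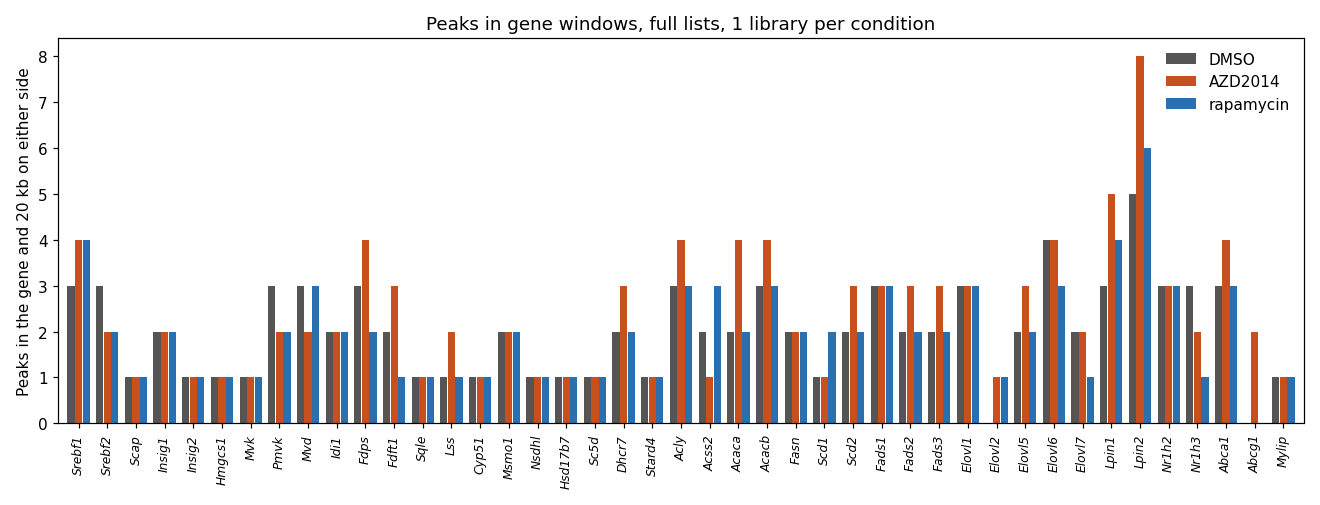
Number of peaks in the gene and 20 kb on either side for each of the 43 genes in the 3 full lists, 1 library per condition. Bars are equal across lists for 18 genes, and Lpin2 has the highest bars, with 5, 8 and 6 peaks.

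Counting each peak once, the 43 gene windows contained 86 DMSO peaks, 102 AZD2014 peaks and 84 rapamycin peaks, or a mean of 2.02, 2.42 and 1.98 per gene where all protein-coding genes had 1.32, 1.56 and 1.37. At equal length the AZD2014 number was 82, below DMSO, so the larger number was not kept at equal length. The number of window peaks was the same in all lists at 18 genes. AZD2014 had more than DMSO at 17 genes (23.6% of all genes did) and fewer at 5 (6.41%), and at equal length more at 4 (12.4%) and fewer at 9 (11.8%). Rapamycin had more at 6 genes (14.8%) and fewer at 7 (11.3%), and at equal length more at 3 (12.2%) and fewer at 8 (13.0%). Differences of 2 or more between lists were seen at Fdps (3, 4 and 2 peaks), Fdft1 (2, 3 and 1), Acss2 (2, 1 and 3) and Acaca (2, 4 and 2), besides Lpin1, Lpin2, Nr1h3 and Abcg1. At equal length the numbers were 3, 2 and 2 at Fdps, 2, 1 and 1 at Acss2 and 2 in each list at Acaca, while those of Fdft1, Nr1h3 and Abcg1 were as in the full lists. The added AZD2014 peaks at Acaca scored 51.1 and 55.7, and that at Fdps 50.2, and a pair of rapamycin peaks at Acss2 scored 52.6 and 52.0, all close to the threshold, whereas the one near Fdft1 scored 97.2 and lay at the end of Neil2.

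Merged over the 3 lists, the window peaks made up 112 regions, of which 72 (64.3%) were shared by every list, against 54.7% of all 24981 regions of the genome. At the members' gene ends 36 of 45 regions (80.0%) were shared by every list, in gene bodies 15 of 32 (46.9%) and in the flanks 21 of 35 (60.0%). Over all protein-coding genes, counted as pairs of a gene and a region in its window, the shares were 82.8% at gene ends, 39.1% in gene bodies and 63.6% in the flanks. Counted as such pairs, the members gave 80.0%, 46.9% and 59.5% (36 of 45, 15 of 32 and 22 of 37). These differences in both directions rest on few regions and were not tested. Regions under AZD2014 alone numbered 17 (15.2%, against 16.0% of all regions), under both drugs and not DMSO 6 (5.36%, against 8.63%), under DMSO alone 4 (3.57%, against 5.80%) and under rapamycin alone 4 (3.57%, against 7.42%). The 4 regions under DMSO alone lay at Srebf2, Pmvk, Acacb and Abca1, with scores of 60.7, 56.2, 65.8 and 63.5. The 6 under both drugs lay at Acacb, Elovl2, Abca1, Lpin2 and, with 2, Lpin1.

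Of 37 further genes of these pathways, such as sterol reductases, acyl-CoA synthetases and the SREBP proteases, 27 had a gene-end peak under DMSO, 29 under AZD2014 and 28 under rapamycin. Of all protein-coding genes, 46.0%, 49.5% and 46.9% had one. In the full lists those gained under both drugs were Tm7sf2, a sterol reductase gene, and Mlx, the partner of a glucose-responsive factor. The gene lost under rapamycin was Elovl4. Of all genes, 4.63% were gained under AZD2014 and 3.05% under rapamycin, and 2.09% were lost under rapamycin. The gains and the loss here are too few to be read as a difference from all genes. Tm7sf2 had its AZD2014 peak (180) at the end shared with Vps51 and its rapamycin peak (221) at the end shared with Znhit2, where a DMSO peak (119) lay 203 bp outside the zone. The Mlx peaks (62.0 under AZD2014 and 81.1 under rapamycin) lay at the end of Coasy too. At equal length the AZD2014 peak of Mlx was lost, so Mlx was then gained under rapamycin only. Elovl4, an elongase gene of very long chains, had 51.9 under DMSO and 112 under AZD2014. With 1 library per condition, none of these differences could be set against replicate error.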

How the data were processed

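ATAC-seq was done on cultured mouse HSCs with 1 library each for DMSO, AZD2014 and rapamycin, grouped by sample title. Per the labels' protocols, 50000 cells were transposed for 30 min at 37 °C and sequenced on a HiSeq 2500. CASAVA and mm10 are named in the submitters' processing notes. For each library the authors deposited a separate list with a score per peak, whose names carry the word MACS. Caller settings, aligner, duplicate handling and read shift are not stated in these sources, and they set how many weak peaks pass. Positions were written from 1.

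Genes came from a RefSeq table of GRCm38.p6, and peaks of 2 lists sharing at least 1 bp were partners. The members and lists were chosen with earlier results of these data known. All 43 genes are named, those with differing gene-end status, window differences of 2 or more, or the 5 highest mean percentiles (Hmgcs1, Fasn, Msmo1, Sqle and Idi1) with full values. No test was run. Alternatives were equal list lengths, score limits, gene-end and window widths, starts only, peaks of 200 bp and partner rules. Overlap counting was checked on simulated peaks. Python 3.11.15, numpy 2.4.6 and matplotlib 3.10.9 were used.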

Additional observations from a re-analysis of the deposited data

How the results depend on the processing

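Of 82 recomputed values for 16 counts, 68 stayed within 1.5 times the reported count and 14 did not. Some of the 68 could not move and are no check. These are the DMSO counts at equal list lengths, since DMSO is the shortest list, and the rises among members with room to rise. No paired analysis was possible because each condition had 1 library. At equal list lengths, AZD2014 lost 1 member (Abca1) in place of 0, AZD2014 window peaks without a DMSO partner numbered 8 in place of 23 and DMSO peaks without an AZD2014 partner 11 in place of 6. Shortening the drug list alone gives the same 8 and 11 by construction, since DMSO is the shortest list, and is no further check. With gene ends of 2500 bp rapamycin lost 0 members in place of 1 (Elovl6). With transcription starts only, given for 35 members, each drug gained 1 member (Elovl2) in place of 3. Abcg1 and Scd1 had no start given, so their absence from these gains was fixed in advance. With scores of 100 or more rapamycin gained 1 (Elovl2) and AZD2014 lost 1 (Fads3). In the upper 50% by score the windows contained 56 DMSO, 62 AZD2014 and 55 rapamycin peaks, and the gene body alone 57 DMSO peaks. Elovl2 was gained under both drugs in every setting tried. Abcg1 was gained under AZD2014 in all settings but the upper 50% and the starts-only one, which could not count it. Srebf1 was gained in the full and equal-length lists and, under rapamycin, with peaks of 200 bp, but in no other setting. Depth is unknown, so weak peaks near the threshold cannot be told from differences in depth.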
